A study of Mus musculus with 8 samples.

Results

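The messenger RNA of 10 transcription factors that steer myeloid differentiation was followed in mouse acute myeloid leukaemia (AML) cells recovered after chemotherapy: Spi1, Cebpa, Cebpb, Cebpd, Cebpe, Runx1, Gfi1, Irf8, Klf4 and Zeb2. They were chosen by name, for their known roles, and make up 10 of the 27179 gene identifiers counted; all 10 were above the filter on low counts and are among the 13364 genes tested. The leukaemia was driven by MLL-AF9, a fusion of a histone methyltransferase with a transcription elongation factor. Its cells expressed green fluorescent protein (GFP) and luciferase, came from 1 terminally ill mouse and were expanded in culture before transfer, so the libraries trace back to 1 leukaemia; the labels give the genotype as WT. Male mice aged 8 to 10 weeks received these cells intravenously without conditioning. When the leukaemia had grown, all mice of both groups received 5+3 chemotherapy, in which cytarabine (100 mg/kg) is given once a day for 5 days, joined by doxorubicin (3 mg/kg) on days 1 to 3.

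At the time of greatest response to the drugs, living GFP-positive, 7AAD-negative cells were sorted from crushed bones for RNA-seq of polyadenylated RNA. There were 5 libraries from mice on a diet with standard amino acids (AA 5+3) and 3 from mice on a diet lacking leucine, isoleucine and valine, the branched-chain amino acids (BCAA). The label of the latter group is only BCAA 5+3; that the diet was free of them is taken from the series' title and design. Libraries held between 14851240 and 38966911 counts. The labels call them biological replicates without tying them to single animals, so p-values measure the spread between these libraries. Levels are read counts in proportion to the size of the library (CPM), with sizes scaled by TMM (trimmed mean of M-values), and fold changes set the BCAA-free against the standard diet. Of 10 genes of the MLL-AF9 leukaemia programme, 9 had reads in every library and Mecom was at 0 in standard-diet replicate 4 and BCAA-free replicate 3. The 10 genes, with Myb the highest, summed to 2478 to 3021 CPM on the standard diet and 2222 to 2448 CPM on the BCAA-free diet, without overlap. In edgeR's test 0 of the 10 had an adjusted p under 0.05, against 0.756% of all tested genes. The log2 fold change was negative for 9, with a median of -0.16, and 1 was under 0.05 before adjustment (13.5% of all tested genes).

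Myeloid differentiation runs from a stem or progenitor cell through a granulocyte and monocyte progenitor to either neutrophils or monocytes and dendritic cells. PU.1, the product of Spi1, and C/EBPα, the product of Cebpa, start the programme on chromatin that RUNX1 helps to open. GFI1 and C/EBPε then favour the neutrophil branch, and IRF8, KLF4 and ZEB2 favour monocytes and dendritic cells. In AML the programme is blocked part of the way, and MLL-fusion leukaemias resemble the progenitor stage that depends on C/EBPα.

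The 3 factors whose levels varied most or separated the diets are shown with the 250 bases upstream of an annotated start site, since these factors are known to regulate one another's genes. The sequences come from the RefSeq table for GRCm38.p6 and read 5′ to 3′ on the gene's strand. Capitals mark matches to short motifs on either strand: in Zeb2 (chr2:45117443-45117692, minus strand), to TTGCNNAA, a C/EBP motif, and to GAGGAA, a PU.1 motif; in Irf8 (chr8:120736108-120736357, plus strand), to AATCAC, a GFI1 motif, read on the other strand. Klf4 (chr4:55532476-55532725, minus strand) held none of the motifs searched.
Zeb2: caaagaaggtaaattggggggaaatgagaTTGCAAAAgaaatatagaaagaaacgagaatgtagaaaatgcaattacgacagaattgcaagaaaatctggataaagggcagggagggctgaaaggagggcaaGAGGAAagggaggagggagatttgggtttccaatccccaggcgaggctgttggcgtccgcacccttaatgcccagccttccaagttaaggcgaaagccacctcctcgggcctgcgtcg
Klf4: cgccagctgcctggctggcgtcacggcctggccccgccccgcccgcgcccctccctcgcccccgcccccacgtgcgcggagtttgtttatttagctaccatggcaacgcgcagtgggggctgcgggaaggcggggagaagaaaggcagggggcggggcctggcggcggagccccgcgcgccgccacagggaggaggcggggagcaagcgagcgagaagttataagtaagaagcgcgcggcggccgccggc
Irf8: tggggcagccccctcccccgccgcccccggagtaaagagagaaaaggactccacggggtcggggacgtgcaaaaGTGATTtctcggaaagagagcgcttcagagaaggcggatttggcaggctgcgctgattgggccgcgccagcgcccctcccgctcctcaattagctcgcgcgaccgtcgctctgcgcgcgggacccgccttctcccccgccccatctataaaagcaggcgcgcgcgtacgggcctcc

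The table held 13 such upstream windows for 7 of the 10 factors, and none for Spi1, Cebpd or Cebpe. The PU.1 motif was in 5 of the 13 windows, which were all 4 windows of Zeb2 and 1 of the 2 of Runx1, against 23.3% of the 32851 windows of all genes. A pair of the Zeb2 windows overlap and share a match. The C/EBP motif was in 2 windows, 1 of Zeb2 and 1 of Gfi1 (9.56% of all windows). The GFI1 motif was in 1 window of Irf8 and in both of Runx1 (9.14%), and CACCTG, bound by ZEB proteins, was in 1 window each of Gfi1, Irf8 and Runx1 (17.2%). The RUNX motif TGTGGT (14.0% of all windows), the IRF motif (GAAA, any 2 bases and GAAA, 2.98%) and the KLF motif GGGTGTGG (3.20%) were in none of the 13. A match describes the letters in these windows and does not show a bound site.

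None of the 10 factors changed with the diet by the test used for all genes. In edgeR's quasi-likelihood test, 0 of 10 had an adjusted p under 0.05, where 0.756% of all tested genes did (101 of 13364), so a count of 0 lies near the background. DESeq2 and limma-voom also called 0 of 10. At an unadjusted p under 0.05 there were 2, Zeb2 and Klf4, against 13.5% of all genes. The same 2 were the factors whose 3 BCAA-free libraries all lay outside the range of the 5 standard-diet libraries, Zeb2 below it and Klf4 above it, a separation found for 8.84% of all tested genes. The median log2 fold change was 0.01 over the 10 factors, of which 5 were positive and 5 negative, and 0.02 over all tested genes. For 7 factors the single-gene 95% interval of the fold change lay within 1.5-fold in either direction. The other 3, Cebpd, Irf8 and Klf4, are those least expressed per length, and their intervals were wider. These are bulk libraries, in which fewer cells of a type and less RNA per cell cannot be told apart.

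**Figure D1:**
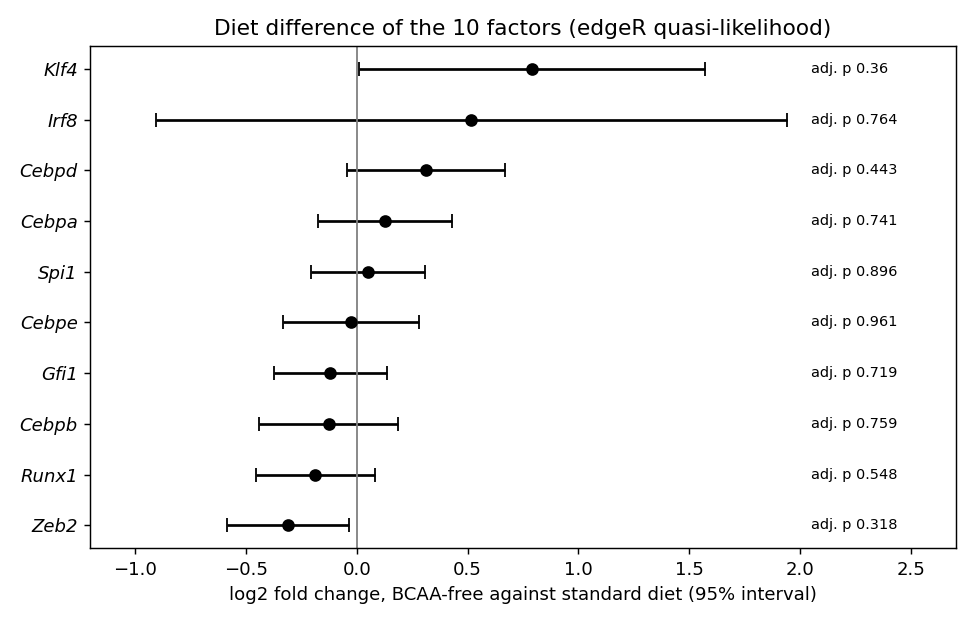
Log2 fold change (x axis) of each of the 10 factors (y axis), BCAA-free against standard diet, with single-gene 95% intervals from edgeR's fit. The intervals of Zeb2 (-0.58 to -0.03) and Klf4 (0.01 to 1.57) leave out 0, and that of Irf8 (-0.91 to 1.94) is the widest.

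**Figure D2:**
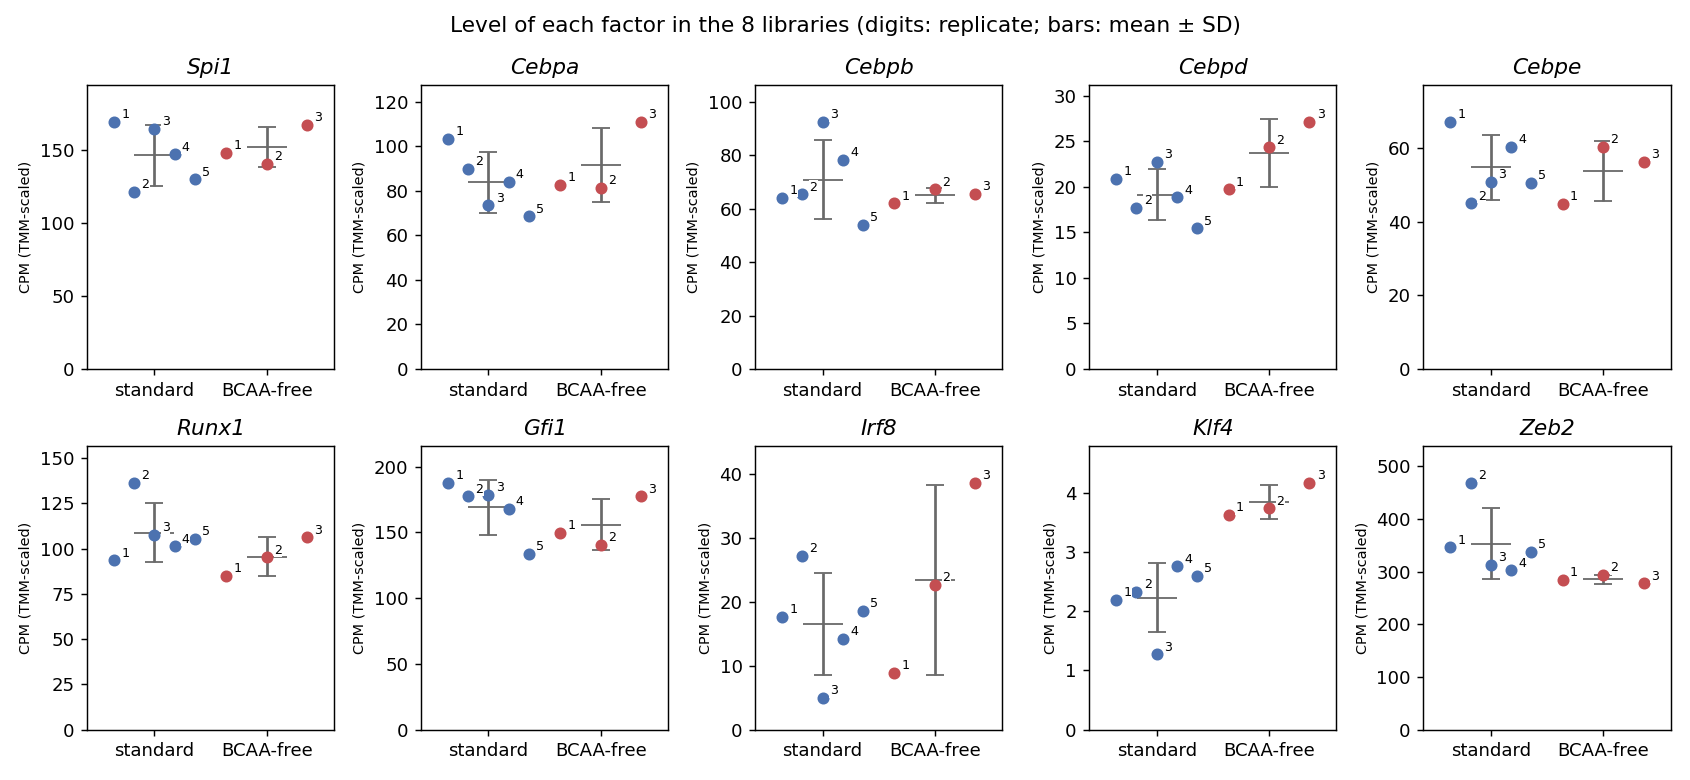
Level of each factor in CPM (y axis, from 0, with its own scale in each panel) in the 5 standard-diet and 3 BCAA-free libraries; digits are replicate numbers and bars are mean ± SD. The groups separate for Klf4 and Zeb2 and overlap for the other 8 factors.

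Spi1 (gene 20375, chr2:91082374-91115759 in GRCm38.p6) encodes PU.1, an ETS factor needed for all myeloid lineages. It stood at 169, 122, 165, 147 and 130.1 CPM in standard-diet replicates 1 to 5 and at 148, 141 and 167 CPM in BCAA-free replicates 1 to 3. The BCAA-free libraries all fell inside the range of the others. The means were 147 ± 20.9 CPM (SD, n = 5) and 152 ± 13.8 CPM (SD, n = 3). The log2 fold change was 0.05 (SE 0.12), with a fold change of 1.04 (95% interval 0.868 to 1.24) and an adjusted p of 0.896.

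Runx1 (gene 12394, chr16:92601466-92826074), the DNA-binding part of core-binding factor, stood at 93.5, 136, 108, 101 and 105 CPM on the standard diet and at 84.9, 95.3 and 106 CPM on the BCAA-free diet. Standard-diet replicate 2 was the highest and BCAA-free replicate 1 the lowest, and the groups overlapped. The means were 109 ± 16.3 CPM (SD, n = 5) and 95.5 ± 10.7 CPM (SD, n = 3), a log2 fold change of -0.19 (SE 0.13, interval -0.45 to 0.08, adjusted p = 0.548).

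The C/EBP factors are leucine-zipper proteins that pair with one another and act at successive stages. Cebpa (gene 12606, chr7:35119293-35121928), which opens the granulocyte and monocyte programme, stood at 103, 89.9, 73.3, 83.9 and 68.6 CPM on the standard diet and at 82.8, 81.2 and 111 CPM on the BCAA-free diet. BCAA-free replicate 3 was the highest library and the other two of that group lay inside the standard-diet range. The log2 fold change was 0.13 (SE 0.14, interval -0.17 to 0.43, adjusted p = 0.741), from 83.8 ± 13.8 to 91.6 ± 16.7 CPM (SD, n = 5 and 3).

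Cebpb (gene 12608, chr2:167688915-167690432), used in emergency granulopoiesis and in monocytes, stood at 64.1, 65.4, 92.5, 78.4 and 54.1 CPM on the standard diet and at 62.0, 67.3 and 65.7 CPM on the BCAA-free diet. The BCAA-free libraries lay close together in the lower part of the standard-diet range. The log2 fold change was -0.13 (SE 0.15, interval -0.44 to 0.19, adjusted p = 0.759), from 70.9 ± 14.9 to 65.0 ± 2.69 CPM.

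Cebpd (gene 12609, chr16:15887286-15889545), an early-response member that is induced by cytokines, stood at 20.9, 17.7, 22.7, 18.8 and 15.4 CPM on the standard diet and at 19.7, 24.3 and 27.1 CPM on the BCAA-free diet. BCAA-free replicates 2 and 3 were above every standard-diet library and replicate 1 was not. The log2 fold change was 0.31 (SE 0.17, interval -0.05 to 0.67, unadjusted p = 0.0829, adjusted p = 0.443), from 19.1 ± 2.82 to 23.7 ± 3.73 CPM. The end of its annotated span overlaps Spidr, a DNA repair gene at 41.4 to 73.7 CPM (adjusted p = 0.201), and the strand setting of the counts is not given in the sources used here.

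Cebpe (gene 110794, chr14:54710363-54712174) drives the late granulocyte stages and the secondary granule genes. It stood at 67.2, 45.1, 50.8, 60.5 and 50.6 CPM on the standard diet and at 44.9, 60.4 and 56.4 CPM on the BCAA-free diet. BCAA-free replicate 1 lay just below the lowest standard-diet library, and the other two lay inside the range. The log2 fold change was -0.03 (SE 0.15, interval -0.33 to 0.28, adjusted p = 0.961), from 54.8 ± 8.85 to 53.9 ± 8.07 CPM.

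Gfi1 (gene 14581, chr5:107716655-107725805), a zinc-finger repressor that favours neutrophils over monocytes, stood at 188, 177, 178, 168 and 134 CPM on the standard diet and at 149.6, 140.3 and 177 CPM on the BCAA-free diet. Standard-diet replicate 5 was the lowest library, and the BCAA-free values all lay inside the standard-diet range. The log2 fold change was -0.12 (SE 0.12, interval -0.37 to 0.14, adjusted p = 0.719), from 169 ± 20.9 to 156 ± 19.3 CPM.

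Irf8 (gene 15900, chr8:120736358-120756694), which commits progenitors to monocytes and dendritic cells, varied most between libraries. It stood at 17.6, 27.2, 4.96, 14.2 and 18.6 CPM on the standard diet and at 8.85, 22.7 and 38.6 CPM on the BCAA-free diet, a 7.78-fold span between standard-diet replicate 3 and BCAA-free replicate 3. Low and high libraries were found on both diets. The means of 16.5 ± 8.03 CPM (SD, n = 5) and 23.4 ± 14.9 CPM (SD, n = 3) gave a log2 fold change of 0.52 (SE 0.60, adjusted p = 0.764), and its interval allows anything from 0.534-fold to 3.84-fold. Without BCAA-free replicate 3 the log2 fold change was -0.06. Standard-diet replicate 3, the library with the least Irf8, held the most RNA of secondary granule genes among the standard-diet libraries (7212 CPM summed over the list, against 983 to 3057 CPM in the other 4). BCAA-free replicate 2 held as much (7330 CPM) with Irf8 at 22.7 CPM, and the part of such cells in the level of Irf8 was not tested.

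Klf4 (gene 16600, chr4:55527137-55532475), a zinc-finger factor of monocyte differentiation that acts downstream of PU.1, was the least abundant factor. It stood at 2.19, 2.33, 1.27, 2.76 and 2.60 CPM on the standard diet and at 3.62, 3.74 and 4.17 CPM on the BCAA-free diet. Every BCAA-free library was above every standard-diet library, as for 4.17% of all tested genes. The means were 2.23 ± 0.581 CPM (SD, n = 5) and 3.84 ± 0.287 CPM (SD, n = 3), and the log2 fold change was 0.79 (SE 0.37), a 1.73-fold higher level with an interval from 1.01 to 2.97. The unadjusted p was 0.0468 and the adjusted p 0.360. The values rest on 32 to 131 reads per library. Over the alternatives tried the log2 fold change was between 0.64 and 1.03 and the adjusted p between 0.281 and 0.755.

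Zeb2 (gene 24136, chr2:44983512-45117442), a repressor needed for monocyte and dendritic cell fates and on which many AML lines depend, had the highest read count of the 10. It stood at 346, 469, 313, 302 and 337 CPM on the standard diet and at 285, 294 and 278 CPM on the BCAA-free diet. Every BCAA-free library was below every standard-diet library, as for 4.68% of all tested genes, though the gap between 294 and 302 CPM is small. The means were 353 ± 66.9 CPM (SD, n = 5) and 285 ± 8.29 CPM (SD, n = 3), a log2 fold change of -0.31 (SE 0.13, interval -0.58 to -0.03). The unadjusted p was 0.0307 and the adjusted p 0.318. Standard-diet replicate 2 stood above the rest, and without it the log2 fold change was -0.18 and the adjusted p 0.413. Over all alternatives the adjusted p was between 0.240 and 0.661. The antisense gene Zeb2os (chr2:45111138-45114087) lies inside the Zeb2 span and was at 5.16 to 8.51 CPM (log2 fold change -0.12, adjusted p = 0.887). Without a known strand setting, it is open how reads in any bases shared by both genes were counted.

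Of the 12241 genes that averaged 1 CPM or more, Gnaq, Glcci1 and Zgrf1 followed Zeb2 most closely over the 8 libraries. Likeness was the mean absolute difference in log2 (CPM + 0.5) after each gene was centred on its own mean, and it was 0.0492, 0.0583 and 0.0589. Gnaq, a G-protein alpha subunit, stood at 121, 161, 116, 123 and 127 CPM on the standard diet and at 103, 108 and 102 CPM on the BCAA-free diet. Like Zeb2, it was highest in standard-diet replicate 2 and lower in each BCAA-free library than in each standard-diet one. This is no separate result, since Gnaq was picked for following Zeb2 in these same libraries.

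**Figure D3:**
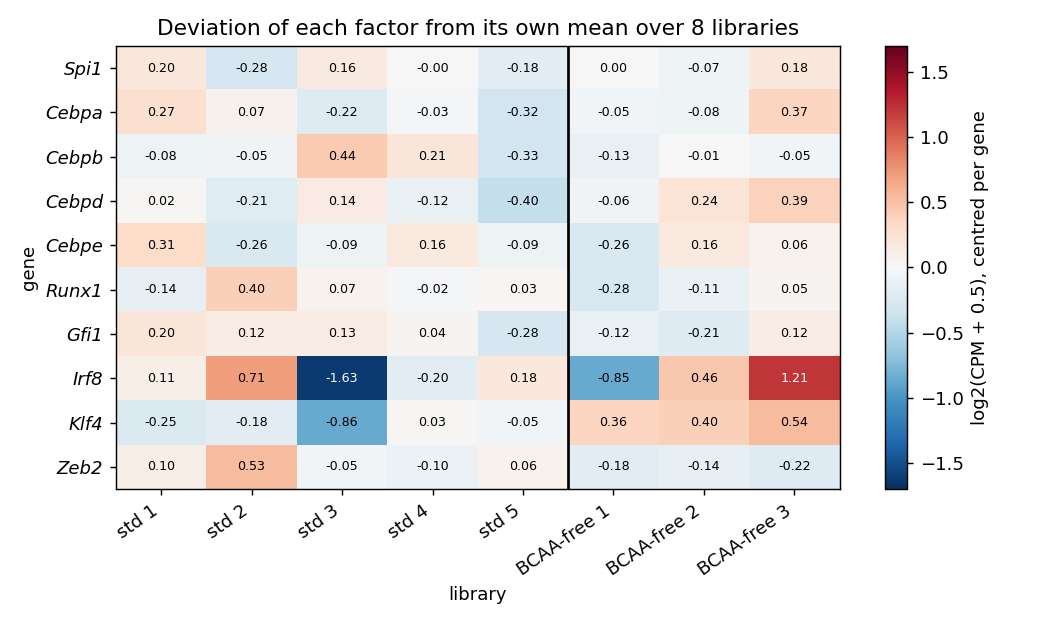
Deviation of each factor (rows) from its own mean over the 8 libraries (columns) on the log2 scale, as colour. Irf8 has the widest range, with standard-diet replicate 3 lowest and BCAA-free replicate 3 highest, and the next farthest value is Klf4 in standard-diet replicate 3 (-0.86).

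The factors did not share their highest and lowest libraries. BCAA-free replicate 3 was the highest library for 4 factors (Cebpa, Cebpd, Irf8 and Klf4) and the lowest for Zeb2. Standard-diet replicate 1 was highest for Spi1, Cebpe and Gfi1. Standard-diet replicate 2 was highest for Runx1 and Zeb2 and lowest for Spi1. Standard-diet replicate 5 was lowest for 4 factors (Cebpa, Cebpb, Cebpd and Gfi1). Thus no library was the highest or the lowest for all factors at once. On the log2 scale, BCAA-free replicate 3 was above the factor's own mean for all but Cebpb (-0.05) and Zeb2 (-0.22). Standard-diet replicate 5 was below it for all but Runx1 (0.03), Irf8 (0.18) and Zeb2 (0.06).

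Between genes, levels can be compared only per length, here as CPM per kilobase of exon. On that scale Spi1 had the highest median over the 8 libraries, 72.6, and was first in all 8. It was followed by Gfi1 (55.6), Cebpb (43.6), Cebpe (43.2), Cebpa (31.6), Zeb2 (26.9), Runx1 (13.9), Cebpd (5.42), Irf8 (5.27) and Klf4 (0.885). Most neighbours in this order kept their places: Spi1 was above Gfi1, Cebpe above Cebpa, Zeb2 above Runx1, Runx1 above Cebpd and Irf8 above Klf4 in 8 of 8 libraries, and Gfi1 was above Cebpb in 7. Cebpa was above Zeb2 in 6. The order was not resolved between Cebpb and Cebpe or between Cebpd and Irf8, where the upper gene was higher in 4 of 8 libraries. Zeb2 drops from the highest level in CPM to the sixth place per length because its exons add up to 11443 bases. The lengths are unions over coding transcripts and can exceed that of any single transcript. Close places, such as Cebpa above Zeb2 (median ratio 1.20), therefore also depend on the length used. For Cebpd the length differs between annotations. With the shorter RefSeq span of 2260 bases in place of 3746, its median was 8.98 and it was above Irf8 in 7 of 8 libraries.

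**Figure D4:**
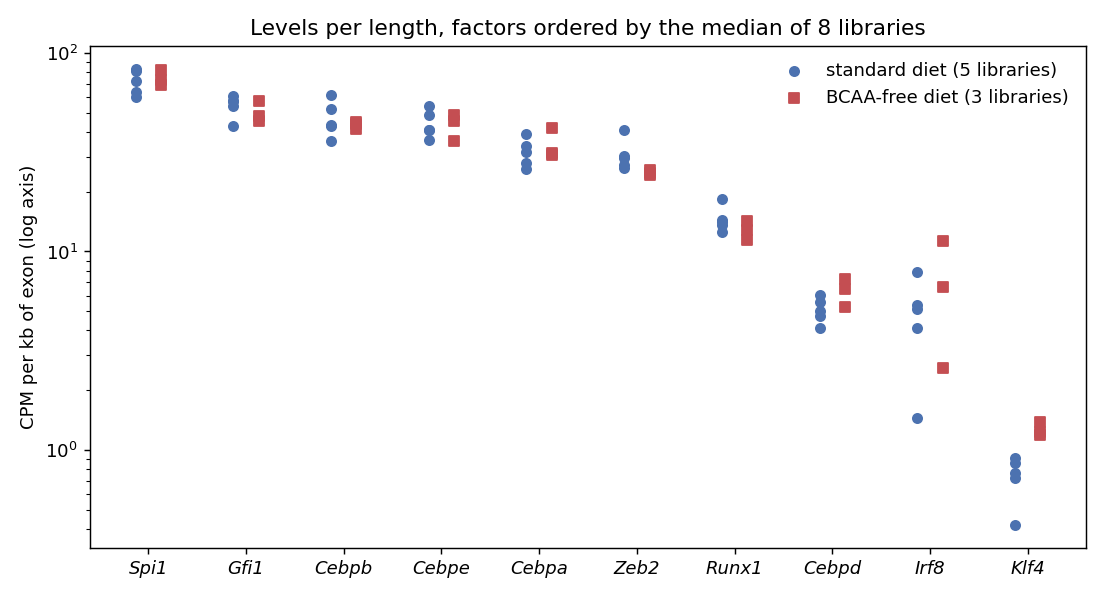
Level per kilobase of exon (CPM per kb, log axis) of each factor in the 8 libraries. Spi1 is highest at a median of 72.6, and Klf4 lowest at 0.885.

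Of the 4 C/EBP genes' summed level per kilobase, Cebpb made up a median of 35.2% (range 30.1% to 45.1%), Cebpe 34.1% (30.0% to 38.3%), Cebpa 25.9% (20.4% to 30.4%) and Cebpd 4.21% (3.65% to 5.23%). With the RefSeq span as its length, the share of Cebpd was 6.80% (5.91% to 8.38%). These ranges run over the 8 libraries of both diets. The early factor Cebpa and the late factor Cebpe were thus present side by side in every library.

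Genes that work with, receive from or lie downstream of the 10 factors were grouped in 8 lists. Of 24 tested related family members and partners, 1 rose and none fell (0.217% and 0.539% of all tested genes), with a median log2 fold change of 0.01. Before adjustment 4 were under 0.05 (13.5% of all tested genes). The gene that rose was Spib, the PU.1 relative of B cells and plasmacytoid dendritic cells. It stood at 0.815, 0.965, 0.635, 0.600 and 0.726 CPM on the standard diet and at 3.96, 18.1 and 1.46 CPM on the BCAA-free diet. Its log2 fold change was 3.37 with an SE of 0.60 (adjusted p = 0.0182). BCAA-free replicate 2 was by far the highest. Without it the log2 fold change was 1.83 and the adjusted p 0.276, and the call was also lost without standard-diet replicate 1 (0.0504), 2 (0.0643), 4 (0.0797) or 5 (0.0722) and in limma-voom (0.375). B-cell markers moved with Spib: 3 of 8 tested, among them Cd79a and Cd79b, rose in edgeR, DESeq2 called 5 and limma-voom 1, and the 9 markers summed to 9.61 to 17.0 CPM on the standard diet and to 28.0, 42.7 and 127 CPM on the BCAA-free diet, most in replicate 2. All 8 tested B-cell markers were positive (median log2 fold change 3.18), with 7 under 0.05 before adjustment (13.5% of all tested genes). The Cd79a call was lost without standard-diet replicate 2, 4 or 5 or BCAA-free replicate 1 or 2 (adjusted p up to 0.235), and the Cd79b call without BCAA-free replicate 2 (0.0764). None of the 9 was at 0 in all libraries. Their part in the level of Spib was not tested.

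Of 16 tested stem and progenitor factors, 1 fell and none rose (0.539% and 0.217% of all tested genes), with a median of -0.05. Before adjustment 4 were under 0.05, against 13.5% of all tested genes. Without overlap between the diets, 2 were lower and 1 higher, against 4.68% and 4.17% of all tested genes. The gene that fell was Ikzf2, the zinc-finger factor Helios. It fell by 0.66 on the log2 scale from 346 ± 71.3 to 219 ± 24.3 CPM (SD, n = 5 and 3, adjusted p = 0.0483). The call was lost whichever library was left out, with an adjusted p from 0.0545 to 0.150. Hoxa9, Meis1 and Myb, core factors of MLL-fusion leukaemia, did not pass. Myb stood at 1206 ± 170.3 and 1068 ± 28.6 CPM (adjusted p = 0.538).

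Of 14 tested monocyte and dendritic cell factors, 1 fell and none rose (0.539% and 0.217% of all tested genes). Before adjustment 3 were under 0.05 (13.5% of all tested genes). The median was 0.55, with 12 values positive and 2 negative, and those 12 did not pass. The count of 1 became 0 without standard-diet replicate 2, 4 or 5 or BCAA-free replicate 1 or 3. Dendritic cell markers summed to 26.6 to 41.5 CPM on the standard diet and to 38.5 to 47.7 CPM on the BCAA-free diet. In edgeR 0 of 6 tested were called, with 2 under 0.05 before adjustment, and DESeq2 called 1 and limma-voom 0. Of the 6 tested, 3 were positive and 3 negative. Bst2, the most abundant, stood at 23.9 ± 4.74 and 21.7 ± 4.18 CPM (adjusted p = 0.805 in edgeR). The higher sum rests mostly on the cytokine receptor Flt3 (3.97 to 11.5 and 10.6 to 19.7 CPM). Flt3 was also the 1 called in DESeq2, and it is counted again among the cytokine receptors below. None of the 8 markers was at 0 in all libraries.

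In edgeR's test, 0 of 14 tested cofactors and corepressors changed (median 0.04), 2 were under 0.05 before adjustment, and DESeq2 and limma-voom called 0. Of those 2, 1 was Hdac2, a histone deacetylase, at 192 ± 16.1 and 164 ± 4.95 CPM (log2 fold change -0.22, adjusted p = 0.348). Of 9 myeloid cytokine receptors, which PU.1 and C/EBP factors are known to activate, 0 changed in edgeR (median 0.01), 2 were under 0.05 before adjustment, DESeq2 called 1 and limma-voom 0. The single DESeq2 call was Flt3, the receptor of FLT3 ligand, for which edgeR gave a log2 fold change of 1.11 (SE 0.30, adjusted p = 0.103). It stood at 6.90, 4.77, 3.97, 7.74 and 11.5 CPM on the standard diet and at 10.6, 19.7 and 14.7 CPM on the BCAA-free diet. Il6ra, the interleukin 6 receptor, stood at 64.4 ± 8.82 and 81.9 ± 15.8 CPM (adjusted p = 0.293).

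Among the target genes of the factors, the early and late granule programmes had medians of opposite sign. Of 9 tested primary granule genes, made at the promyelocyte stage, 0 changed in edgeR, 2 were under 0.05 before adjustment, and DESeq2 and limma-voom each called 1, Mpo. The median was -0.22, with 7 values negative. Mpo, myeloperoxidase, stood at 9793, 8316, 7623, 10004 and 8251 CPM on the standard diet and at 5927, 5814 and 6967 CPM on the BCAA-free diet, without overlap. Its log2 fold change was -0.50 (SE 0.12), and the adjusted p was 0.0605 in edgeR, 0.00166 in DESeq2 and 0.0397 in limma-voom. Elane, neutrophil elastase, stood at 1881 ± 291 and 1473 ± 315 CPM (adjusted p = 0.303).

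Of 14 tested secondary and later granule genes, 0 changed in edgeR, 2 were under 0.05 before adjustment, and DESeq2 and limma-voom called 0. The median was 0.50, with 13 values positive. The smallest p were those of Chil3, a chitinase-like protein (321 ± 147 and 716 ± 255 CPM, adjusted p = 0.320), and Mmp8, neutrophil collagenase (12.7 ± 8.45 and 44.3 ± 34.5 CPM, adjusted p = 0.333). Mmp8 reached 84.0 CPM in BCAA-free replicate 2, against 27.2 and 21.8 CPM in the other two, and without that library its log2 fold change was 0.93 instead of 1.79. Markers of mature neutrophils, which share Mmp8 and others with this list, summed to 51.1 to 410 CPM on the standard diet and to 109.7 to 462 CPM on the BCAA-free diet. In edgeR 0 of 7 tested were called, with 2 under 0.05 before adjustment, and DESeq2 and limma-voom called 0; none of the 8 was at 0 in all libraries. The highest of each diet were standard-diet replicate 3 and BCAA-free replicate 2, the libraries that were also highest for the secondary granule genes. The part of mature neutrophils in these levels was not tested.

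Of 16 tested monocyte genes, 2 rose and none fell (0.217% and 0.539% of all tested genes). The median was 0.37, with 9 values positive and 7 negative. Before adjustment 7 were under 0.05, against 13.5% of all tested genes. The libraries of the diets did not overlap for 4, all higher on the BCAA-free diet, against 4.17% of all tested genes. Emilin2, an extracellular matrix protein, stood at 28.3, 13.7, 27.2, 19.3 and 19.8 CPM on the standard diet and at 56.9, 48.1 and 40.9 CPM on the BCAA-free diet, without overlap. Emilin2 thus rose 2.23-fold, with a log2 fold change of 1.16 (SE 0.20) and an adjusted p of 0.0130. Significance was lost without BCAA-free replicate 1 (0.0664) or 2 (0.0568). Ctss, the lysosomal protease cathepsin S, went from 11.9 ± 3.73 to 24.3 ± 2.20 CPM, a 2.04-fold rise (adjusted p = 0.0450). When single libraries were left out it passed only without standard-diet replicate 5, and without any one of the other 7 the adjusted p was up to 0.130. Macrophage markers summed to 347 to 429 CPM on the standard diet and to 245 to 348 CPM on the BCAA-free diet. The sum rests mostly on Vcam1 (221 ± 11.5 and 158 ± 48.7 CPM, adjusted p = 0.182) and Adgre1 (115 ± 35.5 and 74.0 ± 18.3 CPM, adjusted p = 0.332), and most of the list had the opposite sign. The median log2 fold change of the 10 markers was 0.92, with 7 positive and 7 under 0.05 before adjustment (13.5% of all tested genes). Without overlap between the diets, 3 (C1qa, C1qc and Hmox1) were higher and 1 (Vcam1) lower, against 4.17% and 4.68% of all tested genes. In edgeR 1 of the 10, Cd163, rose (3.85 ± 1.95 to 12.3 ± 4.75 CPM, adjusted p = 0.0450). That call held in 2 of 8 fits with a library left out, those without standard-diet replicate 5 or BCAA-free replicate 3 (adjusted p from 0.0109 to 0.195 over the 8), and limma-voom called 0 of the list. None of the 10 was at 0 in all libraries. Their part in the levels of Klf4, Emilin2 and Ctss was not tested.

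Markers of other cells were also higher in some BCAA-free libraries. T and NK cell markers summed to 12.7 to 24.9 CPM on the standard diet and 14.1 to 50.7 CPM on the BCAA-free diet. In edgeR 0 of 11 were called, with 2 under 0.05 before adjustment, and DESeq2 called 1 and limma-voom 0. Of the 11 tested, 9 were positive and 2 negative (median log2 fold change 1.32). Nkg7, with the highest mean on both diets, stood at 10.1 ± 2.54 and 8.21 ± 1.67 CPM (adjusted p = 0.634 in edgeR). It is also on the list of primary granule genes. Erythroid markers summed to 3.81 to 14.5 and 5.15 to 48.7 CPM, and all 6 tested were positive (median log2 fold change 1.52), with 0 called in edgeR, 2 under 0.05 before adjustment, 1 called in DESeq2 and 0 in limma-voom. Megakaryocyte markers summed to 1.02 to 3.46 and 2.93 to 5.47 CPM, with Gp6 at 0 in all libraries and 1 marker tested, which did not pass. Stromal and endothelial markers summed to 30.6 to 52.5 and 46.3 to 68.7 CPM. Of 5 tested, 3 were positive and 2 negative. Pecam1, the most abundant on the standard diet, stood at 28.0 ± 8.60 and 22.1 ± 5.19 CPM (adjusted p = 0.549 in edgeR). The 1 called in edgeR was Cxcl12, a chemokine of marrow stroma. Cxcl12 rose from 5.21 ± 2.25 to 23.8 ± 13.8 CPM (log2 fold change 2.18, adjusted p = 0.0374). This call was lost without standard-diet replicate 1, 3 or 4 or BCAA-free replicate 1 or 2 (adjusted p up to 0.119), and without BCAA-free replicate 1 the log2 fold change was 1.61. The part of these cells in the levels of the 10 factors was not tested.

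**Figure D5:**
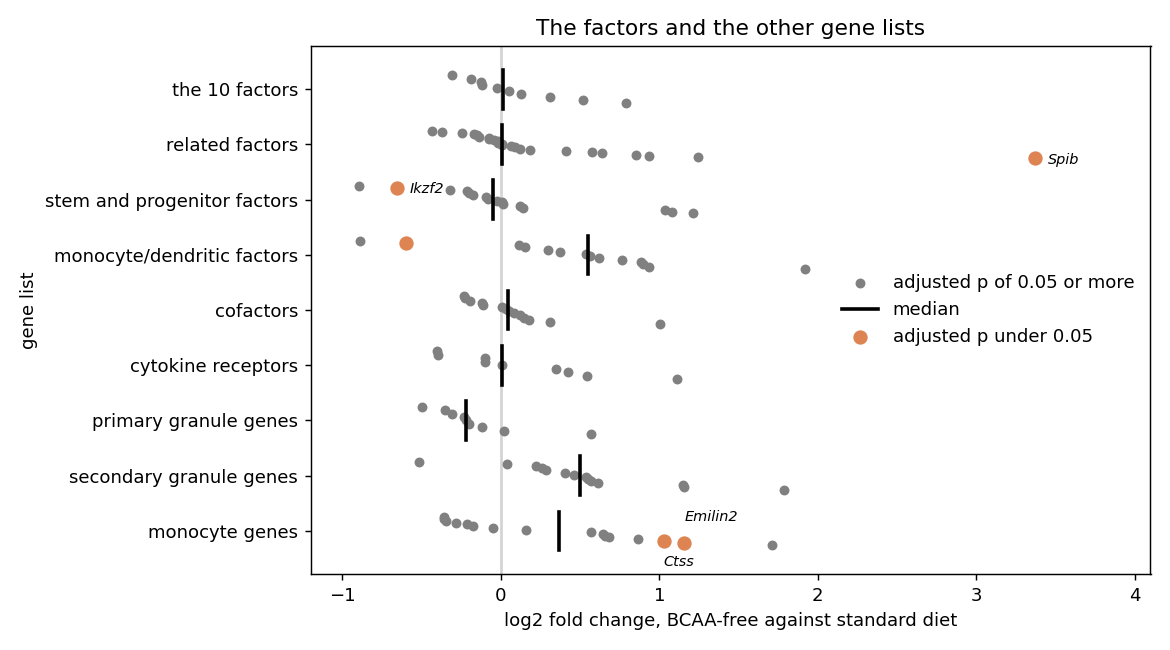
Log2 fold change (x axis, BCAA-free against standard diet) of every tested gene in the 10 factors and the 8 other lists (y axis); bars are medians and orange points are genes with an adjusted p under 0.05. The 10 factors centre on 0.01, and 5 genes of the other lists passed, among them the labelled Spib, Ikzf2, Emilin2 and Ctss.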

How the data were processed

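The authors deposited raw counts per gene for 8 polyA RNA-seq libraries (Kapa mRNA HyperPrep, paired reads of 38 bp, per the labels' protocols), without normalization. The submitters' processing notes name mm10, featureCounts and Cell Ranger, without versions or roles; for the aligner, strand setting and annotation nothing is given in the sources used here. Groups came from sample titles. Of 27179 identifiers, 25275 matched a symbol in the RefSeq table of GRCm38.p6 and 1904 did not. The latter stayed in the tests.

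Genes passing edgeR's default filter (minimum count 10, minimum total 15), 13364 in all, were tested with edgeR 4.0.16's robust quasi-likelihood test in R 4.3.3, on TMM factors with diet as the single term and Benjamini-Hochberg adjustment over all tested genes (threshold 0.05). Standard errors were derived from each log2 fold change and its F, and intervals are unadjusted. The biological coefficient of variation was 23.0%. DESeq2 1.42.0, limma-voom (limma 3.58.1), other scalings, no filter, a non-robust fit, a replicate block and left-out libraries were the alternatives. The procedure was tested on simulated data. No pair of libraries of the same diet agreed within sampling noise, since chi-square was at least 19.5 per degree of freedom for each of the 13 pairs.

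Exon lengths are unions over coding transcripts of the GENCODE basic annotation for GRCm38. Named genes were all 10 factors, called genes of each list (at most 4, by p) or, with none called, the 2 with the smallest p, and the 3 genes most like the factor with the smallest p. Hoxa9, Meis1, Myb, Cd79a, Cd79b, Cd163, Cxcl12, Pecam1, Bst2, Vcam1, Adgre1, C1qa, C1qc, Hmox1, Nkg7, Mecom and Gp6 were named besides, after their values were seen. A few others chosen this way are not reported here. The factors and lists were chosen with earlier results of these data known.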

Additional observations from a re-analysis of the deposited data

Results flagged for a closer look

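Zeb2 in standard-diet replicate 2 stood at 469 CPM, far above the other 4 standard-diet libraries, of which the next was at 346 CPM, by a test for a single outlying sample. That test flags about 1 in 20 groups by chance, and it was applied to each of the 10 factors and to the other named list genes. Without this library the log2 fold change of Zeb2 was -0.18, against -0.31 with it, and its adjusted p was 0.413.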

How the results depend on the processing

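None of the 10 factors was called under any of the 17 alternatives, and 160 of 170 of their fold changes kept their sign. The exceptions were fold changes near 0 or of wide spread. With single libraries left out, the log2 fold change ranged from -0.0267 (without BCAA-free replicate 3) to 0.110 for Spi1, from -0.0366 (the same library) to 0.217 for Cebpa, from -0.122 to 0.0884 (without BCAA-free replicate 1) for Cebpe, and from -0.0593 (without BCAA-free replicate 3) to 0.900 for Irf8. The sign also turned for Spi1 without standard-diet replicate 2 (-0.00776) and for Cebpe without standard-diet replicate 1 (0.0603) or 4 (0.0118) and with upper-quartile factors (0.00895). Without standard-diet replicate 1 and BCAA-free replicate 3 together, Cebpe was at 0.0145 and Irf8 at -0.0398. The count of called genes, 101, was 382 with DESeq2, 237 with no filter and 47 without standard-diet replicate 3 and BCAA-free replicate 2 together, an alternative chosen after seeing the data. It was 32 to 134 with each library left out in turn, falling by more than 1.5 times without standard-diet replicate 2 (52), 4 (55) or 5 (53) or BCAA-free replicate 1 (52) or 2 (32). Replicate numbers are not stated to pair the libraries. Deviations of same-numbered libraries correlated at -0.13, -0.03 and -0.34, and no BCAA-free library correlated best with its own number. These correlations cannot show whether same-numbered libraries were handled together. With the replicate block, edgeR called 0 genes, with 899 at an unadjusted p under 0.05, and none of the list genes named above passed. In that fit standard-diet replicates 4 and 5 have no BCAA-free library of the same number and do not inform the diet difference. Fewer residual degrees of freedom remain there than the 6 of the main fit. Its 0 for the 10 factors is part of a 0 for all genes. The cause of these differences was not tested. DESeq2 called 2 related factors, 2 stem and progenitor factors and 4 monocyte genes, against 1, 1 and 2 in edgeR. With 3 libraries in a group, the intervals allow changes of up to about 1.5-fold for 7 factors and larger ones for Cebpd, Irf8 and Klf4.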
